A study of Mus musculus with 2 samples.

Results

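The genes described here encode the proteases that mast cells store in their secretory granules: the tryptases Tpsab1, Tpsb2 and Tpsg1, the chymase Cma1 and the related mast cell proteases Mcpt1, Mcpt2, Mcpt4 and Mcpt8, carboxypeptidase Cpa3, and granzyme B (Gzmb). They were taken by name, as every probe set whose only gene symbol in the platform annotation was 1 of these 10. All 10 genes were on the array, out of 18193 genes with a probe set of their own, and they had 11 probe sets between them, of 45101. Tpsb2 had a pair of probe sets and the other 9 genes had 1 each.

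Expression was profiled with short-oligonucleotide arrays on total RNA from G1E cells, mouse erythroid progenitors grown as a line and null for GATA-1. In both groups the cells expressed ER-GATA-1(V205G), in which GATA-1 carries a change that weakens its hold on the cofactor FOG-1 and is joined to an estrogen receptor domain, through which estradiol switches it on. The untreated group was 1 array of cells before treatment (0 h), and the estradiol group was 1 array of cells after 24 h with 1 µM estradiol. The comparison asks which transcripts respond to GATA-1 with this weakened hold on FOG-1. With 1 array per group there was no replicate check and no test, and the activated mutant, estradiol itself and the hours in culture cannot be told apart for any gene below.

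Mast cell granule proteases are made as proenzymes, trimmed to their active form and held in the granule on the proteoglycan serglycin and its heparin chains until the cell degranulates. Tryptases cut after basic residues, chymases after aromatic residues, and carboxypeptidase A3 trims residues from the carboxy end of peptides. Granzyme B cuts after aspartate and is best known from killer lymphocytes, although mast cells can make it too. GATA factors are known regulators of mast cell genes, and FOG-1 is known to hold back mast cell features in blood progenitors.

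Promoter sequence is shown for both proteases with a signal at least 5-fold lower after estradiol (Cpa3, Gzmb) and for a chymase whose signal hardly differed (Cma1), because the activated protein is a GATA factor. Each is the 250 bases before a RefSeq transcript start on GRCm38.p6, 5′ to 3′ on the strand of the gene, which is the minus strand for all of them. Capitals mark the letters GATA, or TATC, which is GATA on the opposite strand. The Cpa3 stretch is chr3:20242182-20242431, that of Gzmb chr14:56262335-56262584 and that of Cma1 chr14:55944676-55944925.
Cpa3: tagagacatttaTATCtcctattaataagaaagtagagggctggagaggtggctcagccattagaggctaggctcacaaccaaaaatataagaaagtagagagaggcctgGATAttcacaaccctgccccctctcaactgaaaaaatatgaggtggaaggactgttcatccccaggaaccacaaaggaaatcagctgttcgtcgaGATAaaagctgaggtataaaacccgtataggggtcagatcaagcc
Gzmb: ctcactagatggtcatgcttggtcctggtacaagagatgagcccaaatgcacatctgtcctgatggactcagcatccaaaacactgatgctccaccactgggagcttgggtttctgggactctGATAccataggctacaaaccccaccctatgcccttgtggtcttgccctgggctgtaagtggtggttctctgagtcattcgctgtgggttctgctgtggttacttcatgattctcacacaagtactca
Cma1: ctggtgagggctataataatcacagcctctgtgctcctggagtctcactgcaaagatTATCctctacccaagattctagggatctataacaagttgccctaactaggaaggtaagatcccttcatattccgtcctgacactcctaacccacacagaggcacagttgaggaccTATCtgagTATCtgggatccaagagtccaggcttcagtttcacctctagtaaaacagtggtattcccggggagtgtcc

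The Cpa3 promoter held 3 GATA words, beginning 238, 140 and 45 bases before the start, and the nearest of them stood in the longer word AGATAA. The Gzmb promoter held 1, beginning 127 bases before the start, and it had no longer word, meaning GATA with A or T before it and A or G after it, on either strand. That of Cma1 held 3, beginning 193, 78 and 70 bases before the start, and the middle one stood in a longer word. RefSeq windows of 300 bases, from 250 before to 50 after the start, were matched for 7 of the 10 genes, with 8 windows since Tpsg1 had a second. All 8 windows, and so all 7 genes, had GATA on either strand, against 57.9% of 32851 such windows. A longer word was found in 6 of the 8 windows and 5 of the 7 genes, against 29.8% of all windows. Each longer word contains the shorter one. The word CANNTG, the E-box of basic helix-loop-helix factors, was found in 6 of the 8 windows and 5 of the 7 genes, against 72.3%. Several of these genes are similar in sequence, so their windows are not independent of each other. Promoters with GATA words thus belonged to genes that were lower (Cpa3, Gzmb), nearly level (Cma1) and too dim to read (Mcpt1, Mcpt4, Mcpt8, Tpsg1). Tpsab1, Tpsb2 and Mcpt2 were not matched.

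Signals are linear and were read against a floor of 95.2, the 50th percentile of all signals on both arrays. A gene that reached the floor on each array is called measured, and a gene that reached it on 1 array only has a lower bound for its ratio. The threshold for counting a gene as higher or lower was 2-fold. Of the 10 proteases 5 were measured, 1 had a bound and 4 lay below the floor on both arrays, where over all genes 56.3% were measured and 37.2% lay below on both. Among the measured proteases, 1 was past 2-fold upward after estradiol and 2 were past it downward. The background shares of the 10240 measured genes were 2.04% higher and 1.10% lower (209 and 113 genes). Scaling the arrays to a common median instead gave 160 and 161 genes, so the balance of higher and lower genes depends on the scaling. The 5 ratios ran from -3.11 to 4.61 on the log2 scale with a median of 0.19, beside a median of 0.00 over all measured genes, so the group had no common direction. Ratios below can be read against the SD between log2 ratios from different probe sets of a gene, which was 0.33 for the dimmest tertile of measured genes, 0.27 for the middle tertile and 0.22 for the brightest. That spread covers probe noise and transcript forms and not differences between cultures.

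**Figure D1:**
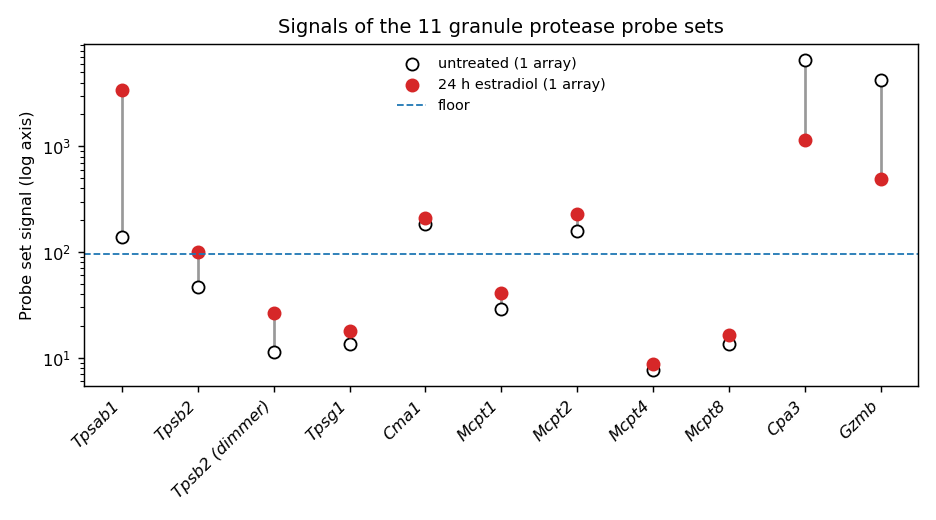
Signal of each of the 11 granule protease probe sets (vertical log axis) on the untreated array (open circles) and the array after 24 h of estradiol (filled circles), with the floor of 95.2 as a dashed line. Tpsab1 lies far higher after estradiol, Cpa3 and Gzmb lie lower, Cma1 and Mcpt2 lie a little above the floor on both arrays, and 5 probe sets, of Tpsb2, Tpsg1, Mcpt1, Mcpt4 and Mcpt8, stay below it throughout.

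The tryptase Tpsab1, known as mouse mast cell protease 7, had the highest ratio of all 10240 measured genes. Its probe set read 140.0 in untreated cells and 3418 after estradiol. The untreated signal was 1.47 times the floor, at the 58.2nd percentile of the array, and the treated signal was 35.9 times the floor, at the 95.0th percentile. The log2 ratio was 4.61, or 24.4-fold higher, against an SD between probe sets of 0.27 for genes of its signal. Because the untreated signal was close to the floor, a floor at the 70th percentile leaves only a bound, of at least 10.7-fold. The RefSeq table of the C57BL/6J reference assembly lists the gene as a transcribed pseudogene. Mice of that strain are known to carry a splice-site change that leaves them without the protein. The strain of the cells is not stated in the labels used here, and the array reads RNA only.

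The other tryptases stayed dim. Tpsb2, mouse mast cell protease 6 and the close relative of Tpsab1, read 47.1 untreated and 100.4 after estradiol on its brighter probe set, which crosses the floor, so the gene was at least 1.05-fold higher. Its dimmer probe set read 11.2 and 26.3, below the floor both times. Both probe sets were higher after estradiol, and a lower floor, the 30th percentile or a signal of 31.7, makes the brighter one measured on both arrays, where it was 2.13-fold higher. Tpsg1, a tryptase anchored in the membrane, read 13.4 and 17.9, below the floor on both arrays. Tpsab1 and Tpsb2 are near copies whose probes can read each other's transcript, and how much of either signal came from the other gene was not tested.

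The chymases and their relatives stayed within 2 SD between probe sets or could not be read. Cma1, mouse mast cell protease 5, read 184.1 untreated and 210.3 after estradiol, a log2 ratio of 0.19. Mcpt2, a protease of mucosal mast cells, read 158.5 and 227.1, a log2 ratio of 0.52. Both lay within 2 SD between probe sets (0.65) for genes in the lowest tertile of signal. Mcpt1, the other main mucosal mast cell protease, read 28.8 and 40.8. Mcpt4, the chymase of connective tissue mast cells, read 7.60 and 8.80, and Mcpt8, a protease that marks basophils, read 13.6 and 16.4. The last 3 were below the floor on both arrays, so no ratio is given. Genes of this family are similar in sequence, and cross-hybridisation among them was not tested.

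Carboxypeptidase A3 was bright in untreated cells and lower after estradiol. Cpa3 read 6616 untreated, at the 98.1st percentile of the array, and 1146 after estradiol, at the 85.2nd. The log2 ratio was -2.53, or 5.77-fold lower, against an SD of 0.22 between probe sets of bright genes. It ranked 3 from the lowest of the 10240 ratios. The treated signal was still 12.0 times the floor, so the transcript remained well above it on both arrays.

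Granzyme B had the lowest ratio of all genes measured at the floor of 95.2. Gzmb read 4260 untreated, at the 96.2nd percentile, and 495.1 after estradiol, at the 75.2nd. The log2 ratio was -3.11, or 8.60-fold lower, and the treated signal was 5.20 times the floor. The lowest rank depends on the floor: at the 30th percentile Rgs13, a gene described below, was measured at -3.27, lower than Gzmb. The 3 proteases past 2-fold were also past 5-fold, as were 13 of all 10240 measured genes (0.127%). The list was drawn up with earlier results of these data known, so this count is no independent sign of a group effect.

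**Figure D2:**
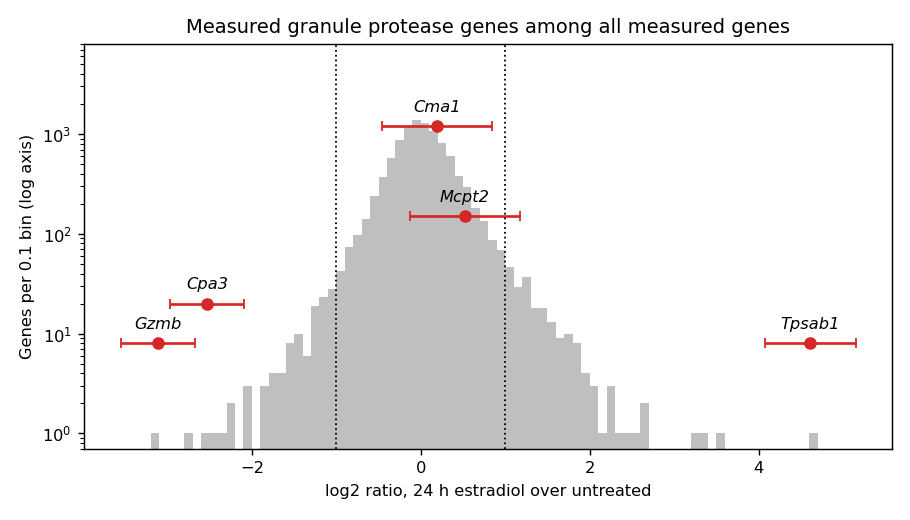
Histogram of the log2 ratio (24 h estradiol over untreated, horizontal axis) of all 10240 measured genes, with the number of genes per bin on a vertical log axis, and the 5 measured proteases as points at arbitrary height. Horizontal bars are 2 SD between probe sets of 1 gene for the signal tertile, and dotted lines mark 2-fold. Tpsab1 at 4.61 and Gzmb at -3.11 hold the ends of the distribution, Cpa3 at -2.53 lies near the lower end, and Cma1 and Mcpt2 lie within the bulk.

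The genes with signals most like those of the 3 proteases past 2-fold were found by distance over the 2 arrays on the log2 scale, a likeness that rests on 2 values per gene. Nearest to Tpsab1 were 1700001L05Rik (226.2 and 2306, distance 0.90) and the erythroid heme synthesis gene Alas2 (283.5 and 3430, distance 1.02). Nearest to Cpa3 were the vimentin gene Vim (7604 and 1168, distance 0.20) and the fucosyltransferase gene Fut8 (4963 and 1372, distance 0.49). Nearest to Gzmb were the sialyltransferase gene St8sia4 (2682 and 557.2, distance 0.69) and the filamin gene Flna (2515 and 625.5, distance 0.83). Signals of different probe sets depend on their probes as well as on transcript amount, so these distances describe the array values only.

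Measured genes beside Cpa3 and Gzmb on their chromosomes differed less than Cpa3 and Gzmb did. In RefSeq order Cpa3 lies on chromosome 3 between Gyg and Cpb1. Of 6 neighbours, 3 on each side, 3 were measured, with log2 ratios from -0.55 to -0.40: Hps3, Hltf and Tbl1xr1. The chymase genes and Gzmb form a cluster on chromosome 14, with Cma1 at one end, Gzmb at the other, and the cathepsin G gene Ctsg and 6 granzyme genes (Gzme, Gzmd, Gzmg, Gzmn, Gzmf, Gzmc) between Mcpt8 and Gzmb. All 7 of these lay below the floor on both arrays. Gzmb was therefore the granzyme of this cluster with a readable signal, at 4260 and 495.1. The 3 measured neighbours outside the proteases there, Khnyn, Sdr39u1 and Cenpj, had log2 ratios from -0.45 to 0.22. On chromosome 17, which also holds Tpsab1, Tpsb2 and Tpsg1 lie side by side among protein-coding genes, and the measured neighbours Prss29 and Sstr5 had 0.10 and 0.05. None of the measured neighbours on any of these chromosomes was past 2-fold. Few genes were anywhere, with 2.04% of all measured genes higher and 1.10% lower.

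Other genes related to the proteases or named like their relatives, the cluster neighbours above included, were mostly too dim to read. Of 12 further genes of the chymase and granzyme family with a probe set, 1 was measured, Gzmm at 135.2 and 121.2 (log2 ratio -0.16), and 11 lay below the floor on both arrays. Gzma, the granzyme that killer lymphocytes make together with granzyme B, read 63.0 and 26.6. Of 10 further genes grouped with the tryptases by their Prss names 2 were measured. These were Prss29 at 0.10 and Prss16, a thymus protease that is no tryptase, at -0.48. Prss22 went from 76.5, below the floor, to 156.5, a bound of at least 1.64-fold. Of 12 further metallocarboxypeptidases 3 were measured, with a median of 0.26: Cpe, the prohormone-trimming enzyme (0.61), Cpd, which works in the secretory pathway (0.26), and Cpq (-0.17). No gene of these 3 lists was past 2-fold, measured or by its bound.

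Genes that store, activate or block the proteases mostly differed little. Of 28 such genes with a probe set 23 were measured, with a median log2 ratio of 0.00, 11 above 0 and 12 below it. Lgmn, the asparagine-cutting protease legumain of lysosomes, was the 1 gene past 2-fold upward (153.8 to 743.6, 4.84-fold), and a floor at the 70th percentile leaves a bound of at least 2.33-fold. None of the measured genes of this list was 2-fold lower, where 2.04% of all measured genes were higher and 1.10% lower. Cst7, which encodes cystatin F, an inhibitor of cysteine cathepsins in granules, read 288.0 untreated and 51.0 after estradiol, below the floor, a bound of at least 3.03-fold lower that is lost with a floor at the 70th percentile, where both signals lie below it. The serglycin gene Srgn read 35.5 and 10.1, and the brightest probe set of Ctsc, whose product cathepsin C trims chymase and granzyme proenzymes, read 35.2 and 39.4, all below the floor. Ndst2, an enzyme of heparin synthesis, read 4963 and 4631 (log2 ratio -0.10). The granule release genes Rab27a and Unc13d had -0.84 and -0.75, with 0.06 on another probe set of Rab27a. The granzyme B inhibitor gene Serpinb9 had -0.23 and Serpinb9b had 0.17. Serpinb9c, named alike but not in this list, had -1.63.

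Other mast cell and basophil genes also went both ways. Of 19 with a probe set 7 were measured, of which 3 were past 2-fold upward and 1 downward, with a median of 0.04. Over all measured genes the shares were 2.04% and 1.10%. This list too was drawn up with earlier results of these data known, so the counts are no independent sign of a group effect. The higher ones were the cytokine gene Il4 (log2 ratio 2.63), Csf2rb, the shared receptor chain for IL-3 (1.80), and Tph1, the enzyme that starts serotonin synthesis (2887 to 8050, 1.48). The lower one was Ms4a2, the beta chain of the IgE receptor (-1.40, and -1.09 on its other probe set). The basophil surface receptor gene Cd200r3 read 346.9 and 79.5, at least 3.64-fold lower, and Rgs13, a regulator of IgE receptor signalling, read 341.3 and 35.3, at least 3.59-fold lower. Both bounds shrink with a floor at the 70th percentile, to 1.09-fold and 1.07-fold. With a floor at the 30th percentile both genes were measured, Cd200r3 at 4.36-fold and Rgs13 at 9.67-fold lower. The stem cell factor receptor gene Kit, which mast cells need to survive, had -0.16.

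Of 20 genes for factors known to act on mast cell protease genes 15 were measured, with a median of 0.07. Gata1 (-0.09) was among them, and its probe set may read the introduced construct. Of the 15, 2 were past 2-fold upward and 1 downward, where the shares of all measured genes were 2.04% and 1.10%. This list was also drawn up with earlier results of these data known, so the counts are no independent sign of a group effect. Zfpm1, the FOG-1 gene, was 2.29-fold higher, with a log2 ratio of 1.66 on its other probe set. Tfe3, a relative of the mast cell factor MITF, was 2.47-fold higher (798.0 to 1970). Stat5a, which relays IL-3 and Kit signals, was 2.37-fold lower, with -1.11 on its other probe set. Gata2, the GATA factor of mast cell progenitors, had a log2 ratio of -0.45, and Mitf itself read 42.3 and 59.9, below the floor. Spi1 had 0.17, Cebpb 0.07 and Runx1 -0.17, with -0.31 to 0.47 on other probe sets of Runx1.

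**Figure D3:**
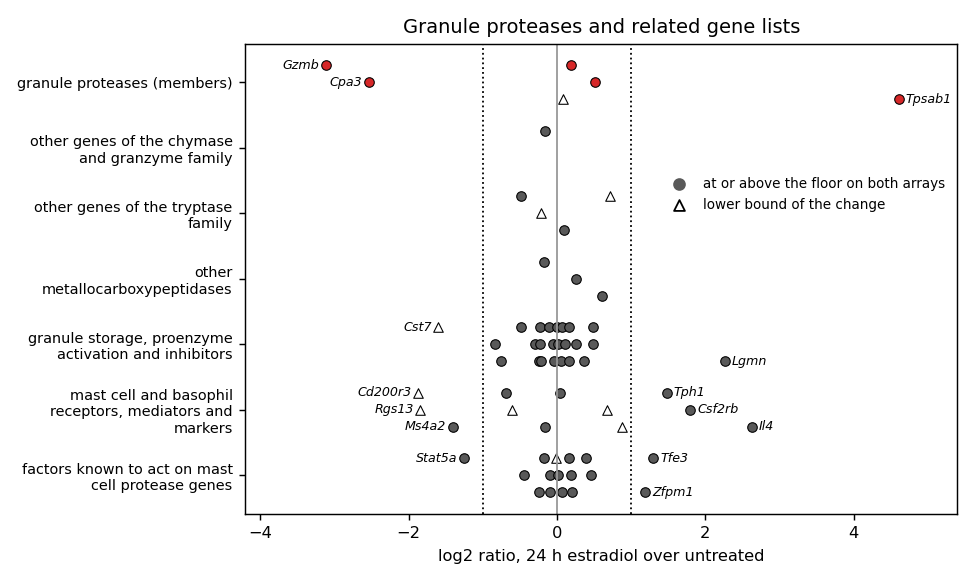
Log2 ratio (24 h estradiol over untreated) of each gene with a value in the granule protease group and 6 related lists; filled circles reached the floor on each array, open triangles are lower bounds, dotted lines mark 2-fold, and genes past it are named. Tpsab1 at 4.61 and Gzmb at -3.11 are the plotted values farthest from 0, followed by Il4 at 2.63 and Cpa3 at -2.53.

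The labelled cell type was checked with marker genes. Of 7 erythroid markers with a probe set 6 were at the floor untreated and 7 after estradiol, and their summed signal was 18241 and 25320. The brightest was the transferrin receptor gene Tfrc (9175 and 10048). Of the 6 measured erythroid markers 4 had a ratio above 0 and 2 below it. Alas2 was 12.1-fold higher (283.5 and 3430), and the globin gene Hbb-bh1 crossed the floor upward (26.7 and 589.2, at least 6.19-fold). Slc4a1 had a log2 ratio of 0.86, with 1.21 on another probe set, Klf1 had 0.62 and Epor -0.13. Gata1, counted among the erythroid markers, read 1264 and 1191. The cells lack GATA-1 and carry the introduced construct, which its probe set may read, so Gata1 cannot check the cell type. Of 7 mast cell markers 4 and 5 were at the floor, with sums of 9117 and 7278, most of it Kit (6661 and 5948), and the histamine enzyme gene Hdc (3.80 and 151.6) and the monoamine transporter gene Slc18a2 (81.9 and 175.7) crossed the floor upward, by at least 1.59-fold and 1.85-fold. Fcer1a, the IgE receptor alpha chain gene, crossed it downward (144.5 and 47.3, at least 1.52-fold). The 4 basophil markers, Mcpt8 among them, summed to 520 and 193, with 2 and 0 at the floor. The 9 markers of cytotoxic T or NK cells summed to 675 and 685, with 3 and 2 at the floor, and those that reached it were Cd8a (245.3 and 241.0), Il2rb (99.5 and 150.9) and, untreated only, Prf1 (106.6 and 92.4). The 8 neutrophil markers summed to 256 and 432, with 0 and 2 at the floor. No marker was listed at 0. The erythroid and mast cell sums were led by Tfrc and by Kit, respectively, so by themselves they do not separate these cell types. The part of these marker genes in the protease results was not tested, and in RNA from a whole culture fewer cells of a type and less RNA per cell cannot be told apart.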

How the data were processed

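The authors deposited 1 linear signal intensity for each probe set on each array, computed with GCOS (no version stated) per the submitters' processing notes. The 2% trimmed mean was 500.0 on both arrays. Probe sets were named through the platform annotation: of 45037 that were not controls, 34945 had 1 gene symbol, 932 several and 9160 none. Signals were rescaled to a common trimmed mean, which moved them by at most 0.0059%. A gene took its brightest probe set. The SD between probe sets pooled 12514 probe sets of 4586 genes. The number of arrays, 1 per group, limits the precision, so no p-value was computed. Members and lists were chosen with earlier results of these data known. Named were all members, listed genes past 2-fold, further listed genes as examples, and the 2 genes nearest to each member past 2-fold. Further genes were named after their values were seen: those named as dim, as chromosome neighbours or for their role. Steps were tested on simulated data. Promoter windows came from RefSeq, GRCm38.p6. Python 3.11.15, numpy 2.4.6, pandas 2.3.3, scipy 1.17.1, statsmodels 0.14.6 and matplotlib 3.10.9 were used. Alternatives covered scaling, floor, probe set and threshold.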

Additional observations from a re-analysis of the deposited data

How the results depend on the processing

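Cpa3 and Gzmb stayed past 2-fold under the alternatives of scaling and floor, with log2 ratios from -2.64 to -2.50 and from -3.22 to -3.06, and both were past 3-fold. Each has 1 probe set, so the choice of probe set could not change them, and the signals as deposited are almost those used. Tpsab1 ranged from 3.42 to 4.61, Mcpt2 from 0.41 to 0.52 and Cma1 from 0.08 to 0.19 where they had a value. Scaling to a common median shifted the median of all genes to -0.11 and gave 160 genes higher and 161 lower, where quantile normalization gave 194 and 125 and loess 198 and 121. The floor moved other values. At the 30th percentile Tpsb2 was measured at 1.09, giving 2 members higher, with 439 genes higher and 288 lower in all. At the 70th percentile Tpsab1 had a bound of 3.42, 2 members were measured with a median of -2.82, 0 were counted higher, and 130 genes were higher and 65 lower. With no floor and 16 added to each signal all 10 members had a ratio, Tpsb2 one of 0.88, and 679 genes were higher and 512 lower. At 1.5-fold 728 genes were higher and 497 lower, and at 3-fold 49 and 21, beside 209 and 113 at 2-fold. The alternatives for listed genes past 2-fold that are no members were added after seeing the data, and none of these genes changed sign. No paired analysis was possible because each group had 1 array. Signal over background limits Tpsg1, Mcpt1, Mcpt4 and Mcpt8, for which no ratio could be formed with the floor of 95.2.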

Other observations

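With 16 added to each signal in place of a floor, the dim proteases gave log2 ratios of 0.34 for Mcpt1, 0.21 for Tpsg1, 0.13 for Mcpt8 and 0.07 for Mcpt4, all from signals below the floor. Including Tpsab1, Tpsb2, Cma1 and Mcpt2, 8 of the 10 proteases then had a ratio above 0, where 53.2% of all 18193 genes did, and Cpa3 and Gzmb were the remaining 2 below it.

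Some probe sets of the same families lay outside the rule because they carry several gene symbols or belong to a pseudogene. The set shared by Cma2 and Mcpt9 read 72.0 untreated and 29.9 after estradiol, that shared by Gzme and Gzmd read 3.40 and 6.80, and that of the pseudogene Mcpt-ps1 read 41.1 and 14.3. All lay below the floor of 95.2 on both arrays.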
